A study of Homo sapiens with 36 samples.

Results

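MDA-MB-231, an established cell line from a triple-negative breast cancer, was depleted of EglN2 in one RNA-seq experiment and of KDM5A in another, and the per-gene effects of both depletions are set against each other here. Of the 36 libraries of the series, the 18 from MDA-MB-231 were used, 9 per experiment. The EglN2 experiment held 3 siControl libraries, 3 siEglN2-1 and 3 siEglN2-2 libraries, and the KDM5A experiment 3 shControl libraries, 3 shKDM5A-1 and 3 shKDM5A-2 libraries. The groups carry no other named treatment or allele, and the sequences of the reagents were not used here. The libraries of the EglN2 experiment held 14361214 to 18011743 counts and those of the KDM5A experiment 14850582 to 19661501. The labels do not tell whether the 3 libraries of a group are separate cultures; the p-values therefore reflect the spread among these libraries, which may be technical. The type of reagent, siRNA or shRNA, changes together with the target, so target and reagent type cannot be told apart in any difference between the experiments.

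Genes that mark MDA-MB-231 in other work were present, 25 of 25, with a summed level of 14268 to 14417.8 CPM (counts scaled to the same library total) in siControl and 13627.4 to 13774.9 CPM in shControl. Of 15 markers of 293T, the other cell line of the series, 5 were measured, with 143.2 to 150.8 CPM in siControl and 121.1 to 128.0 CPM in shControl. Of the markers of luminal epithelium, blood, and endothelium with fibroblasts, 10 of 15, 4 of 15 and 5 of 12 were measured, with sums over all groups of 914.2 to 1341.7 CPM, 74.8 to 152.3 CPM and 35.0 to 49.3 CPM. Of the MDA-MB-231 markers 16 were shared and 5 opposed, of the luminal markers 1 and 2, of the blood markers 1 and 1, of the endothelial and fibroblast markers 4 and 0, and of the 293T markers 2 and 0, where shared and opposed mean called in both experiments in the same or the opposite direction. Over all genes tested in both experiments, 18.4% were shared and 16.3% opposed. The part of the markers in the results was not tested. One siControl library, replicate 1, stood apart from the other siControl libraries by the spread of its counts (chi-square per degree of freedom of 7.09 and 8.08, against 1.55 between the other pair). Without it 6756 genes were called with EglN2, 2497 were shared and 2199 opposed, the 1 gene called between the siRNAs was lost, and 1 of the 2 opposed luminal markers was left.

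EglN2, also called PHD1, is a prolyl hydroxylase of the 2-oxoglutarate and oxygen-dependent family, best known, with its relatives EglN1 and EglN3, for hydroxylating hypoxia-inducible factor alpha subunits, which marks them for degradation. KDM5A is a demethylase that removes methyl groups from lysine 4 of histone H3, a mark of active promoters, and it works beside SIN3 and histone deacetylases. The series concerns hydroxylation of a proline in the histone H3 tail and its link to both proteins, so the comparison asks which transcripts respond alike, oppositely or to only one depletion.

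Sites of a short sequence in 3′ UTRs are shown first. Genes that carry it were more frequent among those lower with EglN2 siRNA than among all genes, whatever KDM5A shRNA did to them. The 7 letters GACAGAA, in capitals below, came from an earlier look at these data, and they were searched on the transcript strand of the longest annotated 3′ UTR of each gene (GENCODE 29, GRCh38). Each line gives 30 bases, 5′ to 3′. The first pair were lower with EglN2 siRNA only, the next 3 moved in opposite directions, and the next pair were lower in both experiments. KDM5B, last in the list, was higher with EglN2 siRNA and lower with KDM5A shRNA. THBS1, which was higher in both experiments, also held a match, and its site is not shown.
FYN (chr6:111661520-111661549, minus strand): gaagcattcgaGACAGAAccttgttatttc
HTR7 (chr10:90742072-90742101, minus strand): atcattcatgaGACAGAAtgtattttgttg
EIF4H (chr7:74197015-74197044, plus strand): ttcagctatatGACAGAAagtaaatctatg
CCP110 (chr16:19551853-19551882, plus strand): actagttgtctGACAGAAatgttaggcttc
FKBP5 (chr6:35582768-35582797, minus strand): gaaaaggcagtGACAGAAagaaaatgccga
CSF2 (chr5:132076029-132076058, plus strand): tattttatactGACAGAAatcagtaatatt
IL1B (chr2:112830076-112830105, minus strand): aaagcccgcctGACAGAAaccacggccaca
KDM5B (chr1:202725786-202725815, minus strand): ctgtaacaggaGACAGAAttggacaacaag
HTR7 and CCP110 held 3 and 2 such matches in their longest 3′ UTR, of which 1 each is shown, and the other genes listed held 1. Of 12413 genes with an annotated 3′ UTR among those tested in both experiments, 1887 (15.2%) held at least 1 match.

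Each target was lower in its own experiment and changed far less in the other. EGLN2 (chr19:40798996-40808433, GRCh38) stood at 105, 106 and 106 CPM in siControl, 25.1, 21.4 and 21.1 CPM with siEglN2-1 and 22.2, 20.8 and 22.1 CPM with siEglN2-2, and all 6 siRNA libraries lay below every control. In the shRNA experiment EGLN2 ran from 83.7 to 88.9 CPM in shControl and from 77.8 to 84.0 CPM in the 6 shKDM5A libraries, and these groups overlapped. Effects are given as log2 fold changes ± SE, the mean of both reagents against their own controls, with edgeR's quasi-likelihood test and Benjamini-Hochberg adjusted p, and a gene was called at adjusted p under 0.05. The EglN2 effect on EGLN2 was -2.26 ± 0.04 (adjusted p = 1.51e-39) and the KDM5A effect -0.10 ± 0.03 (adjusted p = 0.0137), a call that was lost when both shRNAs were fitted as 1 group. EGLN2 lies inside the RAB4B-EGLN2 read-through annotation, and how the counting shared reads between these entries is not given in the sources used here.

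KDM5A (chr12:280129-389454) held 16.1, 17.4 and 16.9 CPM with shKDM5A-1 and 19.4, 18.3 and 18.6 CPM with shKDM5A-2, all below the shControl libraries at 54.9, 48.8 and 47 CPM. In the siRNA experiment it held 37 to 39.3 CPM in siControl and 31.8 to 35.1 CPM with siEglN2, again with no overlap. The KDM5A effect was -1.49 ± 0.05 (edgeR adjusted p = 4.78e-22) and the EglN2 effect -0.18 ± 0.04 (adjusted p = 0.00044), so KDM5A transcripts were also lower, by far less, with EglN2 siRNA.

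The relatives of both targets moved in opposite directions in the 2 experiments. EGLN3, an oxygen-responsive hydroxylase, held 10.5, 13 and 10.3 CPM in siControl and 15.6 to 18.3 CPM in the 6 siEglN2 libraries. It held 13.7, 11.9 and 11.8 CPM in shControl and 4.3 to 6.91 CPM in the 6 shKDM5A libraries. The siRNA libraries all lay above their controls and the shRNA libraries all below theirs, with effects of 0.57 ± 0.08 and -1.21 ± 0.09 and a difference of 1.78 ± 0.12 (edgeR adjusted p = 8.45e-18). EGLN1, the main hydroxylase of HIF alpha subunits, had 0.20 ± 0.03 and -0.34 ± 0.03 (difference 0.54 ± 0.04, adjusted p = 5.00e-17). The H3K4 demethylases KDM5B and KDM5C, close relatives of KDM5A, had EglN2 effects of 0.28 and 0.11 and KDM5A effects of -0.20 and -0.17, each called, with no overlap between libraries and controls in either experiment. Over all genes tested in both, knockdown and control libraries did not overlap for 43.6% with EglN2 and 35.9% with KDM5A.

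Across the transcriptome, both depletions changed about as many genes in opposite directions as in the same direction. The EglN2 effect was called for 7504 of 15109 genes tested (49.7%; 3644 higher, 3860 lower) and the KDM5A effect for 8928 of 15454 (57.8%; 4404 higher, 4524 lower). Of 14889 genes tested in both experiments, 7472 (50.2%) were called with EglN2, 8781 (59%) with KDM5A and 5155 in both, which is 69% of the genes called with EglN2 and 58.7% of those called with KDM5A. Among them 2735 (53.1%) had the same direction and 2420 (46.9%) the opposite one. The shared genes are 1333 higher in both and 1402 lower in both (8.95% and 9.42% of all genes tested in both). The opposed genes are 1110 higher with EglN2 and lower with KDM5A and 1310 the other way (7.46% and 8.8%). The experiments share no control libraries.

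The difference between both effects was tested for each gene in 1 fit of the 18 libraries, and was called for 8293 of 14889 genes (55.7%). It was called for all 2420 opposed genes, which the class nearly ensures, since called effects of opposite sign add up in the difference. Among the 2735 shared genes it was called for 1350 (49.4%), so many shared genes shared a direction and not a size. Genes called in one experiment, not called in the other and with a called difference numbered 1598 for EglN2 (10.7%), of which 816 were higher (5.48%) and 782 lower (5.25%), and 2693 for KDM5A (18.1%), of which 1228 were higher (8.25%) and 1465 lower (9.84%). A further 719 (4.83%) and 933 (6.27%) genes were called in one experiment without a called difference, and are assigned to neither. The remaining 3791 (25.5%) were called in neither experiment. Of the EglN2-only genes, 176 of the 816 higher and 184 of the 782 lower were called with each shRNA in opposite directions, so for these the missing KDM5A call rests on a mean of opposite effects. Most effects were small: the median absolute log2 fold change over all genes was 0.167 for EglN2 and 0.211 for KDM5A, and 267 and 466 genes exceeded 1. With a 1.5-fold minimum on each effect, 143 shared and 84 opposed genes were left.

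**Figure D1:**
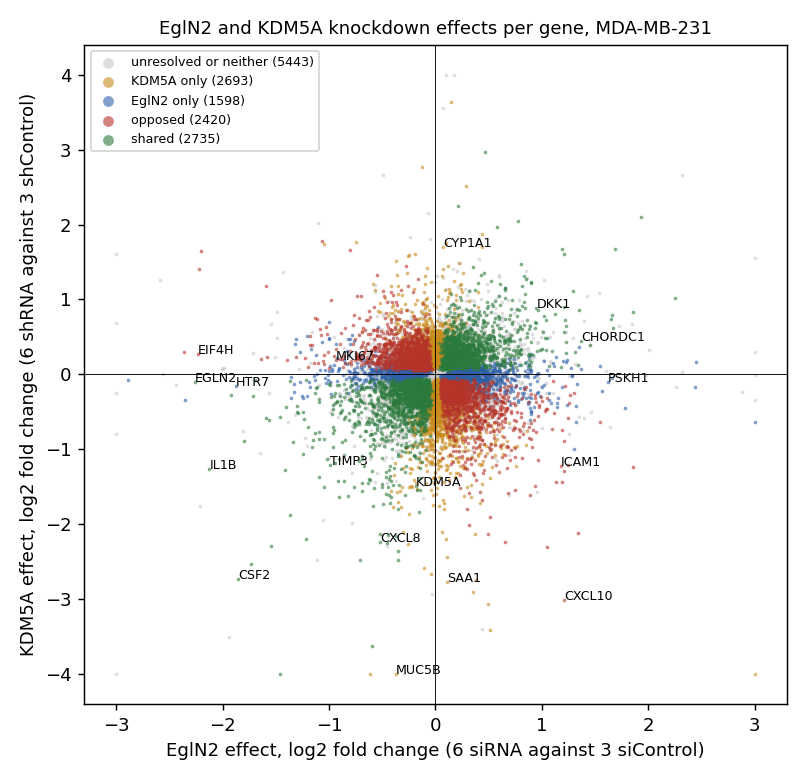
Each point is 1 of 14889 genes, with its log2 fold change after EglN2 siRNA on the horizontal axis and after KDM5A shRNA on the vertical axis; values beyond 3 or 4 are drawn at the edge, and colours give the class with its number of genes. Shared (green) and opposed (red) genes fill all 4 quadrants, and CSF2 and CXCL10 lie far from the centre on the shared and the opposed side.

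As a description across genes, which are not independent replicates, the effects were related with Pearson's r = 0.0534 and Spearman's rho = 0.0402 over 14889 genes, and with r = 0.104 over the 6206 genes with an average log2 CPM of at least 5 in both experiments. The plot of both effects shows the same: genes of every class surround the origin. The 4 pairings of an siRNA with an shRNA gave r between 0.0412 and 0.0513.

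The reagents of each target differed in how alike they were. Between siEglN2-2 and siEglN2-1, edgeR called 1 of 15109 genes (0.00662%), the unnamed transcript RP4-798P15.3 (log2 3.66, adjusted p = 0.0266), and 940 genes had an unadjusted p under 0.05. Between shKDM5A-2 and shKDM5A-1, 8752 of 15454 genes were called (56.6%). Against their own controls, siEglN2-1 called 44.5% of genes, siEglN2-2 45.4%, shKDM5A-1 55.3% and shKDM5A-2 59%. For 1125 of the 14889 genes both shRNAs were called against shControl in opposite directions. KDM5A itself was lower with both, by -1.57 and -1.42. Mitochondrial transcripts took 7.67% to 7.72% of counts in shControl, 9.09% to 9.21% with shKDM5A-1 and 9.68% to 9.89% with shKDM5A-2, against 8.80% to 8.91% in siControl and 9.12% to 9.43% with siEglN2. The summed MDA-MB-231 markers also differed, with 12736.9 to 12833.4 CPM with shKDM5A-1 and 10544.3 to 10628.4 CPM with shKDM5A-2, and the part of either measure in the results was not tested.

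Because of this difference, each count is also given for genes called with each of the 4 reagents alone and with the same sign within a target. This left 664 genes higher in both experiments (4.46%), 698 lower in both (4.69%), 481 higher with EglN2 and lower with KDM5A (3.23%) and 645 the other way (4.33%). From each of these 4 sets the 8 genes with the largest shift in their weakest reagent are named, beside genes of single experiments and of the lists. Where both shRNAs were fitted as 1 group of 6, their spread entered the error and 4664 genes were called with KDM5A. Both reagents of a target share their controls, and the siRNAs were nearly alike, so agreement between the siRNAs adds little. Called alone with the same sign were 5848 genes with the siRNAs and 4983 with the shRNAs.

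Cytokines, an AP-1 subunit and a prostaglandin synthase were among the genes lower in both experiments by the largest margins. CSF2 (chr5:132073790-132076170), the growth factor GM-CSF, stood at 22.7, 22.7 and 22.4 CPM in siControl, 6.32, 6.15 and 6.91 CPM with siEglN2-1 and 5.65, 6.0 and 6.42 CPM with siEglN2-2. It stood at 75.4, 76.5 and 81.9 CPM in shControl, 13.7, 15.7 and 14.7 CPM with shKDM5A-1 and 8.73, 9.68 and 9.77 CPM with shKDM5A-2. Every knockdown library lay below its controls, with an EglN2 effect of -1.85 ± 0.07 (edgeR adjusted p = 5.10e-25) and a KDM5A effect of -2.73 ± 0.05 (adjusted p = 8.70e-30). CSF3 (chr17:40015361-40017813), which encodes G-CSF, held 24.4 to 24.7 CPM in siControl against 9.4 to 12.1 CPM in the siEglN2 libraries, and 181, 179 and 186 CPM in shControl against 36.9 to 45 CPM in the shKDM5A libraries. Its effects were -1.21 ± 0.07 and -2.19 ± 0.03, and the fall with KDM5A shRNA was larger by 0.98 on the log2 scale (adjusted p = 1.19e-16).

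IL1B (chr2:112829751-112836903), the inflammatory cytokine interleukin-1 beta, fell further with EglN2 siRNA than with KDM5A shRNA. It held 19.8, 19.5 and 18 CPM in siControl, 4.69, 5.12 and 4.02 CPM with siEglN2-1 and 4.35, 3.74 and 4.39 CPM with siEglN2-2. In the other experiment it held 70.2, 69.8 and 74.1 CPM in shControl, 43.5, 39.2 and 41.1 CPM with shKDM5A-1 and 23.9, 18.7 and 22.1 CPM with shKDM5A-2. The groups did not overlap, the effects were -2.12 ± 0.09 and -1.26 ± 0.05, and their difference of -0.86 ± 0.10 was called (edgeR adjusted p = 3.01e-10). CXCL8, the neutrophil chemokine interleukin-8, had the opposite order of size, with -0.52 ± 0.04 and -2.24 ± 0.02. Its levels were 111 to 121 CPM in siControl and 75 to 86.6 CPM with siEglN2, and 841 to 897 CPM in shControl and 147 to 232 CPM with shKDM5A, so each knockdown group lay below its controls.

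The cytokine and chemokine list held 19 tested members, of which 10 were lower and 1 higher in both experiments, 2 were opposed, 1 was changed with EglN2 only and 1 with KDM5A only. Its median log2 fold change was -0.35 with EglN2 and -0.87 with KDM5A, against 0.00 and -0.01 over all genes tested in both. Of all those genes, 9.42% were lower in both experiments, 8.95% higher in both and 16.3% opposed. The shared count of the cytokine list was 11 with either shRNA alone, with DESeq2, and when each reagent had to be called alone, and 4 with a 1.5-fold minimum on each effect. With that minimum none of the 29 lists held more than 4 shared or 2 opposed genes. IL32, one of the opposed members, had 0.90 and -0.87.

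FOS, the AP-1 transcription factor subunit, held 26.5, 28.8 and 31.9 CPM in siControl and 9.72 to 12.9 CPM with siEglN2. It held 60.3, 62.4 and 62.1 CPM in shControl, 30.4, 28.5 and 30.4 CPM with shKDM5A-1 and 10.2, 8.92 and 9.23 CPM with shKDM5A-2. No groups overlapped, and the effects were -1.36 ± 0.07 and -1.88 ± 0.05 (edgeR adjusted p = 6.17e-20 and 3.55e-26). Which effect was larger depended on the shRNA, at -1.05 and -2.71 for shKDM5A-1 and shKDM5A-2. Over all genes tested in both, 9.42% were lower in both, 8.95% higher in both and 16.3% opposed. Among 36 immediate early and ERK feedback genes, 14 were lower and 1 higher in both, 7 opposed, 4 changed with EglN2 only and 6 with KDM5A only. KLF2, a transcription factor of this list, had -1.10 and -0.77, while NR4A2, an orphan nuclear receptor, had 0.32 and -1.58, both called.

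PTGES, the synthase that makes prostaglandin E2, stood at 156, 159 and 155 CPM in siControl and 70.9 to 77.7 CPM in the siEglN2 libraries. It stood at 279, 272 and 287 CPM in shControl, 147, 144 and 143 CPM with shKDM5A-1 and 84.1, 79.1 and 79.5 CPM with shKDM5A-2. All 12 knockdown libraries lay below their controls, with effects of -1.09 ± 0.03 and -1.37 ± 0.03. TIMP3, an inhibitor of matrix metalloproteinases, was the most abundant gene of the set, at 1129, 1113 and 1094 CPM in siControl, 559.8, 554 and 556 CPM with siEglN2-1 and 564, 561 and 570.2 CPM with siEglN2-2. It held 596, 591 and 593 CPM in shControl, 245, 240.5 and 237 CPM with shKDM5A-1 and 272, 275 and 283 CPM with shKDM5A-2. Groups were tight and apart, and the effects of -0.99 ± 0.01 and -1.20 ± 0.02 differed by 0.21 (edgeR adjusted p = 1.50e-10).

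Further genes lower with all 4 reagents were ASB2, a substrate receptor of cullin ubiquitin ligases, with -1.55 ± 0.12 and -2.29 ± 0.11, and ISM1, a secreted protein, with -0.91 ± 0.09 and -1.42 ± 0.09. LEFTY1, a secreted antagonist of Nodal, held 3.75 to 4.33 CPM in siControl against 1.05 to 1.87 CPM with siEglN2, and 6.13 to 7.42 CPM in shControl against 1.69, 0.946 and 1.78 CPM with shKDM5A-1. It held 0, 0 and 0.216 CPM with shKDM5A-2, too little for a fold to be given, and its reads can be shared with the similar gene LEFTY2.

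The plot of shared genes by library shows CSF2, CSF3, TIMP3 and PTGES below their controls with all 4 reagents and DKK1, ANKRD1, PDE1C and CYP24A1 above them.

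**Figure D2:**
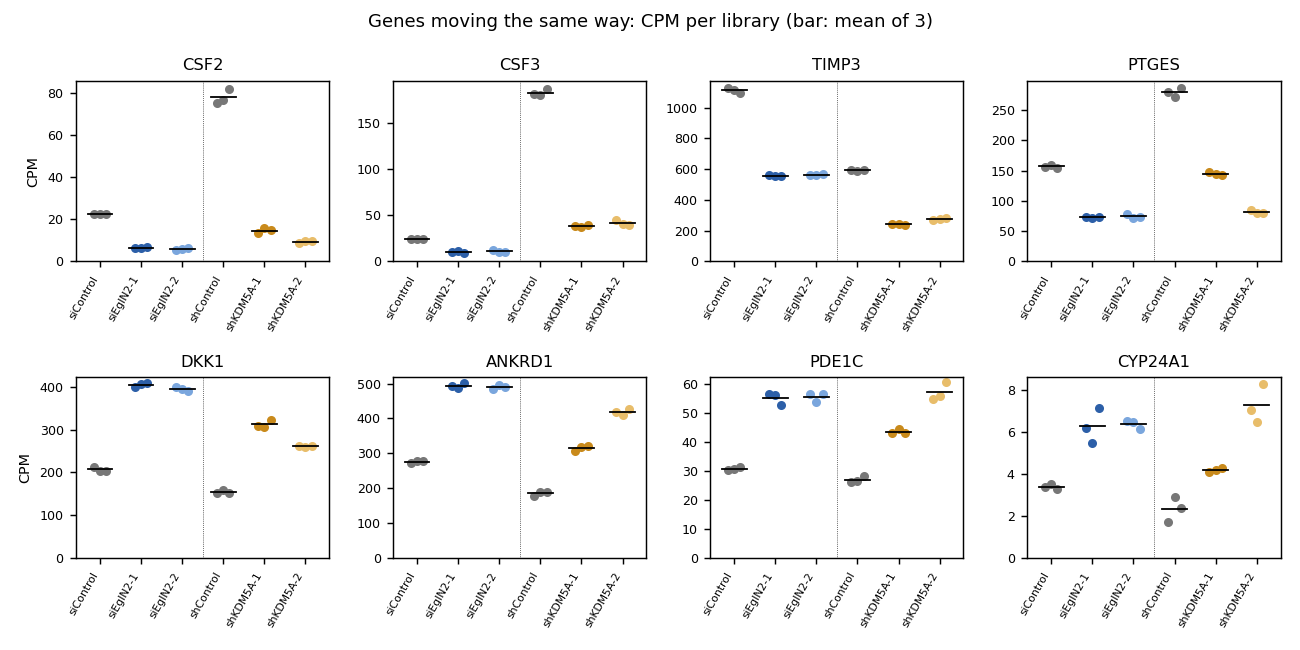
CPM of 8 genes called in the same direction with all 4 reagents, 1 point per library and a bar for the mean of 3, with the siRNA experiment left of the dotted line and the shRNA experiment right of it. CSF2, CSF3, TIMP3 and PTGES lie lower, and DKK1, ANKRD1, PDE1C and CYP24A1 higher, than their own controls in every library.

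Genes higher in both experiments included abundant ones with tight libraries. DKK1 (chr10:52314296-52318042), a secreted antagonist of Wnt signalling, held 213, 204 and 204 CPM in siControl, 399, 407 and 409.6 CPM with siEglN2-1 and 401, 395 and 391 CPM with siEglN2-2. It held 151, 160.0 and 153 CPM in shControl, 309, 307 and 323 CPM with shKDM5A-1 and 262, 260.3 and 261 CPM with shKDM5A-2. No knockdown library reached down to a control, and the effects were 0.95 ± 0.02 and 0.89 ± 0.03 (edgeR adjusted p = 1.11e-34 and 3.49e-24). Their difference of 0.06 ± 0.03 was not called (adjusted p = 0.0907).

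ANKRD1 (chr10:90912096-90921276), a target of the YAP coactivator, held 271 to 279 CPM in siControl against 485 to 501 CPM with siEglN2. It held 178 to 189.6 CPM in shControl against 308, 317 and 321 CPM with shKDM5A-1 and 419, 410.4 and 426 CPM with shKDM5A-2, with effects of 0.84 ± 0.02 and 0.97 ± 0.03. PDE1C, a cyclic nucleotide phosphodiesterase, held 30.3 to 31.3 CPM in siControl against 52.6 to 56.5 CPM with siEglN2, and 26 to 28.3 CPM in shControl against 43.1 to 60.4 CPM with shKDM5A, so both groups again stood clear of their controls. Its effects were 0.85 ± 0.04 and 0.88 ± 0.05, with a difference of -0.04 ± 0.06 (edgeR adjusted p = 0.671).

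Less abundant genes higher with all 4 reagents were CYP24A1, the vitamin D 24-hydroxylase (0.90 and 1.24), KDR, a VEGF receptor (0.81 and 1.18), ST6GALNAC5, a sialyltransferase (1.19 and 1.67), and TPD52L1 (0.77 and 0.78). Their control levels lay between 1.49 ± 0.277 and 4.25 ± 0.176 CPM. KRTAP2-3 had effects of 1.93 and 2.10, which are uncertain because keratin-associated protein genes have near-identical copies.

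Of 30 TGF-beta and YAP targets, 11 were higher and 6 lower in both experiments, 4 were opposed, 1 was changed with EglN2 only and 4 with KDM5A only, with medians of 0.19 and 0.18. TAGLN, an actin-binding protein of contractile cells, had 1.13 and 0.81. The matrix glycoprotein THBS1 had 0.89 and 0.65. Of 35 matrix genes and matrix proteases, 12 were lower and 5 higher in both, 9 opposed, 2 changed with EglN2 only and 4 with KDM5A only, with medians of -0.09 and -0.37. Beside both lists, 9.42% of all genes tested were lower in both experiments, 8.95% higher in both and 16.3% opposed.

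Interferon-stimulated and NF-kB target genes gave the largest opposed counts with EglN2 on the higher side among the 29 lists. CXCL10 (chr4:76021117-76023497), a ligand of the chemokine receptor CXCR3, stood at 1.11, 0.894 and 0.85 CPM in siControl, 2.31, 1.84 and 2.83 CPM with siEglN2-1 and 1.92, 2.37 and 2.03 CPM with siEglN2-2. It stood at 7.42, 7.18 and 7.47 CPM in shControl, 0.925, 1.06 and 0.836 CPM with shKDM5A-1 and 0.757, 0.806 and 1.08 CPM with shKDM5A-2. The siRNA libraries all lay above their controls and the shRNA libraries all below theirs, but shControl lay several times above siControl and the knockdown levels of both experiments were low. The effects were 1.21 ± 0.23 and -3.0 ± 0.15, with a difference of 4.22 ± 0.26 (edgeR adjusted p = 1.86e-19). CXCL11, which binds the same receptor, had 1.05 and -2.30 at similarly low levels.

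IFIT2, an interferon-induced antiviral protein, gave the pattern at higher counts. It held 44, 38.7 and 45 CPM in siControl, 65.2, 67.9 and 64 CPM with siEglN2-1 and 65.2, 63.7 and 66.3 CPM with siEglN2-2. It held 82.9, 86 and 85.4 CPM in shControl, 60.1, 58.6 and 56.9 CPM with shKDM5A-1 and 60.1, 57.3 and 60.6 CPM with shKDM5A-2. No groups overlapped, with effects of 0.62 ± 0.04 and -0.52 ± 0.03 (edgeR adjusted p = 1.78e-17 and 5.68e-15). GBP2, an interferon-induced GTPase, had 0.38 and -1.41, and TMEM173, which encodes the DNA-sensing adaptor STING, 0.62 ± 0.05 and -0.95 ± 0.05.

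Of 43 interferon-stimulated genes tested, 22 were higher with EglN2 and lower with KDM5A, 0 were opposed the other way, 3 were shared, 3 were changed with EglN2 only and 10 with KDM5A only. Over all genes tested in both, 7.46% were higher with EglN2 and lower with KDM5A, 8.8% were opposed the other way, and 18.4% were shared. The list medians were 0.28 with EglN2 and -0.42 with KDM5A, with -0.42 for shKDM5A-1 and -0.45 for shKDM5A-2. The opposed count was 21 with shKDM5A-1 alone, 19 with shKDM5A-2 alone, 15 where each reagent had to be called and 1 with the 1.5-fold minimum. In MHC class I and antigen presentation genes, 6 of 19 were shared, 6 opposed, 1 changed with EglN2 only and 5 with KDM5A only, with medians of 0.04 and -0.18. That balance turned with the shRNA, at 3 shared and 9 opposed with shKDM5A-1 alone and 7 and 4 with shKDM5A-2 alone. The peptide-trimming protease ERAP1 had 0.94 and -0.27.

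ICAM1 (chr19:10270835-10286615), an adhesion molecule and NF-kB target, held 70.4, 68.6 and 71.2 CPM in siControl, 163, 155 and 157 CPM with siEglN2-1 and 158, 164 and 155 CPM with siEglN2-2. It held 395, 382 and 399 CPM in shControl, 280.4, 273 and 286 CPM with shKDM5A-1 and 100.2, 105 and 97.3 CPM with shKDM5A-2. The shift was upward in every siRNA library and downward in every shRNA library, with effects of 1.18 ± 0.03 and -1.23 ± 0.02 (edgeR adjusted p = 1.24e-34 and 1.16e-28). The shRNAs differed in size, at -0.49 and -1.96, and the KDM5A call was lost where they were fitted as 1 group. Of 26 NF-kB subunits and feedback targets, 12 were higher with EglN2 and lower with KDM5A, 0 opposed the other way, 6 shared, 1 changed with EglN2 only and 5 with KDM5A only, with medians of 0.12 and -0.86. Of all genes tested in both, 7.46% were higher with EglN2 and lower with KDM5A, 8.8% were opposed the other way, and 18.4% were shared.

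Enzymes outside immune signalling showed the same opposition. NNMT (chr11:114257787-114313285), nicotinamide N-methyltransferase, held 23, 25.8 and 25 CPM in siControl, 56.9, 57.3 and 58 CPM with siEglN2-1 and 58.5, 57.9 and 60.6 CPM with siEglN2-2. It held 64.6, 70.2 and 70.1 CPM in shControl, 41, 43.8 and 43.9 CPM with shKDM5A-1 and 20.6, 21.1 and 19.96 CPM with shKDM5A-2. Groups were apart in both experiments, and the effects of 1.25 ± 0.04 and -1.20 ± 0.04 were almost equal in size. SGPL1, the lyase that degrades sphingosine 1-phosphate, held 37 to 38.2 CPM in siControl against 63.2 to 66.1 CPM with siEglN2, and 73.9 to 75.3 CPM in shControl against 34 to 48.9 CPM with shKDM5A, with 0.79 ± 0.04 and -0.84 ± 0.04. PAQR8, a membrane progesterone receptor (0.81 and -1.11), SYT17, a synaptotagmin (0.90 and -0.97), CITED4, a partner of CBP and p300 (0.89 and -1.61), and the protease inhibitor CST7 (1.54 and -0.64) completed the 8 genes with the largest opposed shifts of this kind over all 4 reagents. PLOD2, a collagen lysyl hydroxylase, had 0.60 and -1.30.

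Cell-cycle genes gave the largest opposed counts of the other kind, lower with EglN2 and higher with KDM5A. Of 40 mitosis and G2/M genes, 27 were opposed in this direction and 0 in the other, 4 were lower in both, 6 were lower with EglN2 only, 0 were changed with KDM5A only and 3 in neither. Of 45 S phase and DNA replication genes, 23 were opposed in this direction and 0 in the other, 10 were shared, 7 were lower with EglN2 only and 2 higher with KDM5A only. Over all genes tested in both, 8.8% were opposed in this direction, 7.46% in the other, and 18.4% were shared. The list medians were -0.25 and -0.20 with EglN2 and 0.12 and 0.14 with KDM5A. In bulk RNA, fewer cells in a phase and less RNA per cell cannot be told apart.

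The KDM5A side of these groups came mostly from shKDM5A-1. The median of the mitosis list was 0.28 with shKDM5A-1 and -0.01 with shKDM5A-2, and that of the S phase list 0.24 and 0.03. With shKDM5A-1 alone 31 mitosis and 26 S phase genes were opposed, and 1 and 8 were shared. With shKDM5A-2 alone 14 and 12 were opposed, and 9 and 11 were shared. Where each reagent had to be called, 12 and 7 opposed genes were left, and with the 1.5-fold minimum 0 and 0.

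KIF23, a motor of the central spindle, was opposed with every reagent. It held 104, 111 and 114 CPM in siControl and 78.8 to 80.8 CPM with siEglN2, and 111, 114 and 113 CPM in shControl and 147 to 152 CPM with shKDM5A. All siRNA libraries were below and all shRNA libraries above their controls, with -0.46 ± 0.03 and 0.40 ± 0.03 (edgeR adjusted p = 1.45e-17 and 1.80e-14). CDCA8, which encodes the chromosomal passenger protein borealin, had -0.24 and 0.56, and the transcription factor FOXM1 -0.33 and 0.30. MKI67, the proliferation marker Ki-67, had the largest EglN2 effect among the list members named here, with 307 to 323 CPM in siControl against 161 to 171 CPM with siEglN2 (-0.94 ± 0.02). Its KDM5A effect of 0.20 ± 0.04 rested on overlapping libraries, at 356 to 385 CPM in shControl and 354 to 481 CPM with shKDM5A, and was lost where both shRNAs were fitted as 1 group.

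CDC25A (chr3:48157146-48188402), the phosphatase that activates S phase CDKs, held 47.4, 46.9 and 46.7 CPM in siControl, 30.2, 31.7 and 29.7 CPM with siEglN2-1 and 30.9, 30.2 and 31.8 CPM with siEglN2-2. It held 34.6, 35.2 and 36.4 CPM in shControl, 51.9, 46.7 and 49.5 CPM with shKDM5A-1 and 52.7, 56.4 and 52.1 CPM with shKDM5A-2. The groups were apart, with -0.61 ± 0.04 and 0.54 ± 0.04 (edgeR adjusted p = 2.30e-17 and 3.20e-12). DSCC1, a subunit of a clamp loader used in sister chromatid cohesion, had -0.63 and 0.54. CCND1, cyclin D1, held 852 to 857 CPM in siControl against 667 to 697 CPM with siEglN2, and 508 to 510.4 CPM in shControl against 601 to 749 CPM with shKDM5A, with -0.33 ± 0.02 and 0.40 ± 0.02.

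Not every cell-cycle gene took this course. RRM2, the small subunit of ribonucleotide reductase, was higher in both (0.50 ± 0.03 and 0.48 ± 0.02), as was CCNE2, cyclin E2 (0.66 and 0.43). The CDK inhibitor CDKN1A was lower in both (-0.72 and -0.42). CDKN1C, another CDK inhibitor, had 0.52 and -0.99. Of 11 G1 cyclins and CDK inhibitors, 3 were lower in both, 4 opposed and 3 changed with EglN2 only, with medians of -0.22 and -0.07. Over all genes tested in both, 9.42% were lower in both, 16.3% opposed and 10.7% changed with EglN2 only.

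CCP110 (chr16:19523811-19553408), a centriolar protein, fell from 39, 38 and 42.5 CPM in siControl to 19.1, 19.4 and 20.8 CPM with siEglN2-1 and 19.6, 20.3 and 18.8 CPM with siEglN2-2. It rose from 38.2, 36.6 and 39 CPM in shControl to 59.7, 58.6 and 53.7 CPM with shKDM5A-1 and 55.1, 50.1 and 55.3 CPM with shKDM5A-2. Its libraries stood apart from their controls in both directions, with -1.02 ± 0.05 and 0.54 ± 0.04 and a difference of -1.56 ± 0.07 (edgeR adjusted p = 8.10e-25). FKBP5, a co-chaperone of steroid receptors, had -0.78 ± 0.07 and 0.66 ± 0.04, from levels of 44.5 to 54.3 CPM in siControl against 25.1 to 31.1 CPM with siEglN2, and 46.1 to 48.1 CPM in shControl against 67.4 to 79.96 CPM with shKDM5A. CHST3, a chondroitin sulfotransferase, had -0.69 and 0.56. The focal adhesion protein TNS1 (-0.58 and 0.90), the receptor TNFRSF19 (-1.11 and 0.74) and the cation-transporting ATPase ATP13A3 (-0.51 and 0.58) followed. Of the 8 genes with the largest opposed shifts of this kind, 7 carried the 3′ UTR match, all but DSCC1, and none of the 8 opposed the other way did. The letters came from these data and the genes were picked by their shifts, so these counts are a description only. Among all genes opposed with all 4 reagents, 26.4% of those lower with EglN2 and 8.53% of those higher carried it. The share of all genes with a 3′ UTR was 15.2%.

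**Figure D3:**
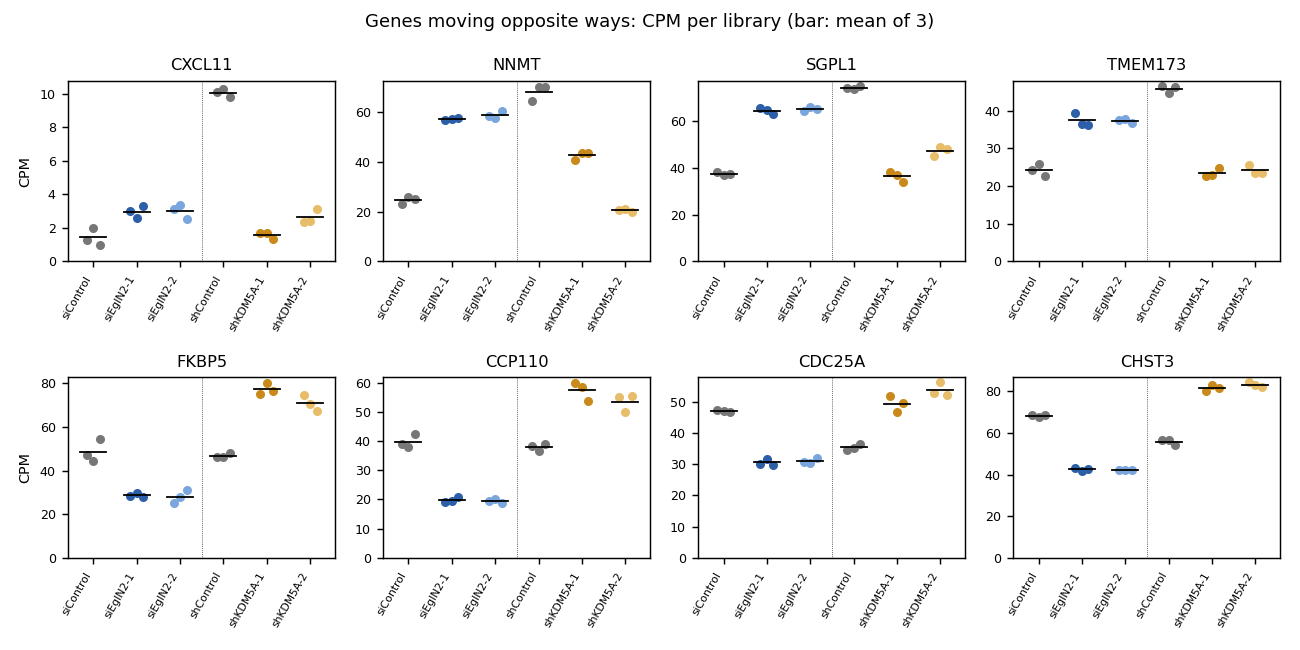
CPM of 8 genes called in opposite directions with all 4 reagents, 1 point per library and a bar for the mean of 3, siRNA experiment left and shRNA experiment right of the dotted line. CXCL11, NNMT, SGPL1 and TMEM173 (upper row) lie above siControl and below shControl, and FKBP5, CCP110, CDC25A and CHST3 (lower row) the reverse.

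The plot of opposed genes by library shows shifts with both reagents of a target, by the choice of the genes. Control groups stood at different levels for CXCL11, NNMT, SGPL1 and TMEM173, and also for CDC25A, where siControl was the higher.

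Genes of translation and ribosome assembly included opposed genes of this kind. EIF4H (chr7:74174245-74197101), a cofactor of the eIF4A helicase, showed the largest fall of this set with EglN2, from 435, 430.2 and 426 CPM in siControl to 90.9, 95.3 and 88.8 CPM with siEglN2-1 and 90.2, 90.7 and 93.4 CPM with siEglN2-2. In the shRNA experiment it held 389.6, 389 and 385 CPM in shControl, 529.9, 519.6 and 526 CPM with shKDM5A-1 and 416, 419.9 and 425 CPM with shKDM5A-2. The siRNA libraries lay far below and the shRNA libraries somewhat above their controls, with -2.23 ± 0.02 and 0.28 ± 0.02, the second of which was lost where both shRNAs were 1 group. EIF4EBP2, a repressor of cap-dependent translation, had -1.18 and 0.51. Of 29 translation initiation factors, 6 were shared, 10 opposed, 4 changed with EglN2 only and 5 with KDM5A only, with medians of -0.06 and 0.13. Over all genes tested in both, 18.4% were shared and 16.3% opposed.

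Of 35 MYC and ribosome biogenesis genes, 34 were higher with KDM5A and 0 lower, where 29.1% of all genes tested in both were higher. With EglN2 11 of the 35 were lower and 7 higher, where 25.8% and 24.3% of all genes were, so 11 were opposed, 7 shared and 15 changed with KDM5A only, with medians of 0.00 and 0.39. POLR1A, the largest subunit of RNA polymerase I, had -0.32 ± 0.03 and 0.64 ± 0.03. In cytosolic ribosomal proteins, whose reads can be shared with processed pseudogenes, 5 of 39 were shared, 13 opposed, 8 changed with EglN2 only and 4 with KDM5A only, with medians of 0.23 and -0.13 for shKDM5A-1 and shKDM5A-2. With shKDM5A-1 alone 3 were shared and 24 opposed, with shKDM5A-2 alone 17 and 5, and where each reagent had to be called 0 and 2. Of 34 mitochondrial ribosome and import genes, 11 were higher in both, 7 opposed, 1 changed with EglN2 only and 11 with KDM5A only, with medians of 0.02 and 0.26. Nuclear genes of the respiratory chain gave 10 of 42 shared, 6 opposed, 5 changed with EglN2 only and 3 with KDM5A only, and 12 in neither, and turned from 6 shared and 9 opposed with shKDM5A-1 alone to 13 and 6 with shKDM5A-2 alone. Over all genes tested in both, 18.4% were shared, 16.3% opposed, 10.7% changed with EglN2 only and 18.1% with KDM5A only. Of those genes 8.95% were higher in both and 25.5% were called in neither.

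Hypoxia targets and glycolytic genes fell almost throughout with KDM5A and went both ways with EglN2. With KDM5A 38 of 42 were lower and 1 higher, where 29.8% and 29.1% of all genes tested in both were. With EglN2 22 were lower and 11 higher, where 25.8% and 24.3% of all genes were, so the share higher was near that over all genes. In both experiments 20 were lower, where 9.42% of all genes were. A further 10 were higher with EglN2 and lower with KDM5A, where 7.46% of all genes were. The others included 3 changed with EglN2 only and 9 with KDM5A only, and medians were -0.04 and -0.58. ANGPTL4, a lipase inhibitor, had -0.82 ± 0.07 and -1.62 ± 0.07, and P4HA2, a collagen prolyl hydroxylase, -0.71 and -0.83. CA9, carbonic anhydrase IX, held 6.18, 7.56 and 7.08 CPM in siControl and 4.77 to 5.6 CPM with siEglN2, and 5.33, 4.62 and 5.64 CPM in shControl, 1.85, 1.56 and 1.78 CPM with shKDM5A-1 and 0.64, 0.43 and 0.971 CPM with shKDM5A-2. The siRNA libraries lay just below their controls and the shRNA libraries far below, and the difference of 1.80 ± 0.19 was called (edgeR adjusted p = 2.41e-11). Of 16 HIF hydroxylases and oxygen-sensing genes, 6 were shared, 5 opposed and 2 changed with EglN2 only (4 shared and 6 opposed with shKDM5A-1 alone, 5 and 4 with shKDM5A-2 alone), with VHL at -0.34 and -0.39. Over all genes tested in both, 18.4% were shared, 16.3% opposed, 10.7% changed with EglN2 only and 18.1% with KDM5A only.

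Cholesterol synthesis and unfolded protein response genes were mostly lower in both, where 9.42% of all genes tested in both experiments were. Of all those genes, 18.4% were shared and 16.3% opposed. Of 32 cholesterol synthesis and SREBP2 targets, 19 were lower in both, 3 opposed, 1 changed with EglN2 only and 3 with KDM5A only. On the KDM5A side this followed the shRNA, with a median of 0.04 for shKDM5A-1 and -0.51 for shKDM5A-2 and with 10 shared and 9 opposed against 19 shared and 4 opposed. HMGCS1, an early enzyme of cholesterol synthesis and one of the opposed genes, had 0.19 with EglN2 and -0.23 and -1.29 with the shRNAs. Of 27 unfolded protein response and ER chaperone genes, 14 were lower and 2 higher in both, 3 opposed, 1 changed with EglN2 only and 4 with KDM5A only, with medians of -0.21 and -0.25. PDIA4, an ER protein disulfide isomerase, had -0.54 ± 0.02 and -0.47 ± 0.02.

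The genes changed with EglN2 only included a receptor and kinases. PSKH1 (chr16:67893272-67929678), a serine kinase, rose from 13, 16.1 and 13.9 CPM in siControl to 45, 45.3 and 42.7 CPM with siEglN2-1 and 43.3, 43 and 44.5 CPM with siEglN2-2. In the shRNA experiment it held 27.4, 26.8 and 25.6 CPM in shControl and 23 to 27 CPM with shKDM5A, and those groups overlapped. The EglN2 effect was 1.62 ± 0.05, the KDM5A effect -0.10 ± 0.05 (edgeR adjusted p = 0.0836) and their difference 1.72 ± 0.08 (adjusted p = 1.15e-24). IL7R, the interleukin-7 receptor (1.33 and -0.13), and the kinase NEK11 (1.57 and -0.22) were likewise higher.

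FYN (chr6:111660332-111873452), a Src family kinase, fell from 62.8, 64.8 and 66.4 CPM in siControl to 25, 26.2 and 25.2 CPM with siEglN2-1 and 27.2, 23.8 and 23.9 CPM with siEglN2-2. It held 67.3, 63.3 and 66.9 CPM in shControl, 61.1, 60.9 and 62.9 CPM with shKDM5A-1 and 66.8, 66.2 and 68.4 CPM with shKDM5A-2, with overlap between these groups. Its effects were -1.36 ± 0.04 and -0.03 ± 0.03 (edgeR adjusted p = 1.02e-29 and 0.403). HTR7, a serotonin receptor, held 20.03 to 23.2 CPM in siControl against 5.38 to 6.57 CPM with siEglN2, with -1.87 ± 0.08 against -0.15 ± 0.07 (adjusted p = 0.0526 for KDM5A, where shKDM5A-1 alone was called at -0.38 and shKDM5A-2 had 0.08). Further genes lower with EglN2 only were FAM49B (-1.08), KCTD9 (-1.14), DHRS2, a short-chain dehydrogenase (-0.92), and CYGB, cytoglobin (-0.83). The mean KDM5A effect on KCTD9 joined shRNA effects of opposite sign, at 0.11 and -0.15.

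**Figure D4:**
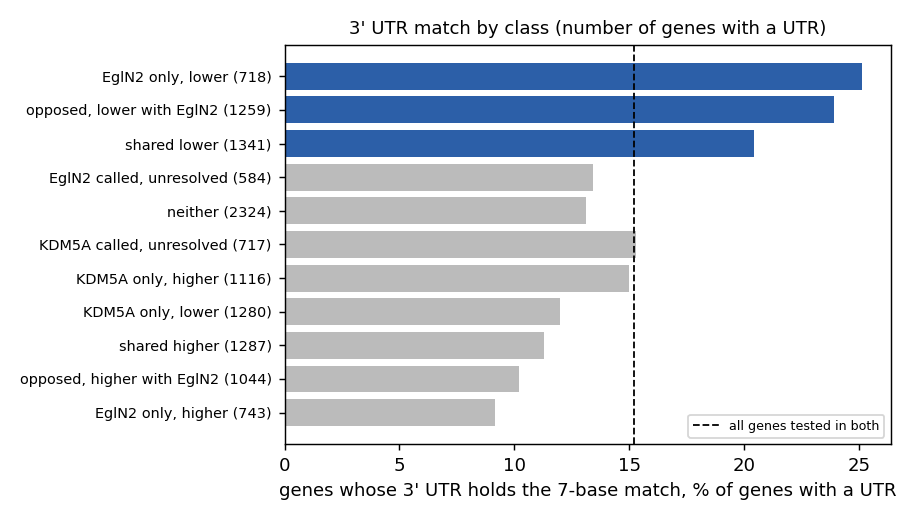
Share of genes, in percent of those with an annotated 3′ UTR, whose 3′ UTR holds GACAGAA, by class with the number of genes in brackets; the dashed line marks 15.2% of all genes tested in both. The 3 classes lower with EglN2 (blue) reach 20.4% to 25.1%, and the 3 classes higher with EglN2 lie between 9.15% and 11.3%.

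By share, the 3′ UTR match was more frequent in all 3 classes lower with EglN2, whatever the KDM5A effect, than in the 3 classes higher with EglN2. As a description, with the letters taken from these data, 25.1% of genes lower with EglN2 only, 23.9% of those lower with EglN2 and higher with KDM5A, and 20.4% of those lower in both carried it, against 15.2% of all genes with a 3′ UTR. The plot of the match by class shows the shares on the other side, at 11.3% of genes higher in both, 10.2% of those higher with EglN2 and lower with KDM5A, and 9.15% of those higher with EglN2 only. Among genes changed with KDM5A only the share was 15% of those higher and 12% of those lower. Of 90 genes with an EglN2 log2 fold change below -1, 41 (45.6%) carried the match, and of 99 above 1, 5 (5.05%). For KDM5A the corresponding shares were 15.3% below -1 and 14% above 1.

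The letters came from these data, so the medians of carriers are a description only. Within the classes lower with EglN2, carriers had the larger median EglN2 effect. Among genes lower in both, the median EglN2 effect was -0.34 for carriers and -0.22 for the others, while the median KDM5A effect was -0.29 for each. Among genes lower with EglN2 and higher with KDM5A, the EglN2 medians were -0.31 and -0.19 and the KDM5A medians 0.25 and 0.22. With all carriers taken out of the finished calls, 2317 shared, 2012 opposed, 1350 EglN2-only and 2373 KDM5A-only genes were left. Nothing was fitted again for these counts, so they test nothing about the match. Median 3′ UTR lengths ran from 1042 to 1705 bases by class, and a longer 3′ UTR has more room for a match.

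Genes changed with KDM5A only included some with larger effects than any named for EglN2 only. CYP1A1 (chr15:74719542-74725610), a monooxygenase induced through the aryl hydrocarbon receptor, held 5.6, 5.49 and 5.29 CPM in shControl, 15.7, 16.1 and 14.7 CPM with shKDM5A-1 and 18, 21.1 and 21.5 CPM with shKDM5A-2. It held 8.71 to 10.4 CPM in siControl and 9.26 to 11.7 CPM with siEglN2, where the groups overlapped. The KDM5A effect was 1.70 ± 0.09 and the EglN2 effect 0.07 ± 0.09 (edgeR adjusted p = 0.517), with a called difference of -1.63 ± 0.13. RGS4, a regulator of G protein signalling (1.45 and, with EglN2, 0.12), and ABI3BP, a matrix protein (1.06 and -0.31), were also higher. FAM86B1 (1.35 and -0.26) belongs to a family of near-identical copies and is uncertain.

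MUC5B (chr11:1223066-1262172), a gel-forming mucin, held 27.9, 32.1 and 27 CPM in shControl, 2.67, 2.67 and 2.51 CPM with shKDM5A-1 and 0.64, 0.914 and 1.13 CPM with shKDM5A-2. In the siRNA experiment it held 2.93, 2.2 and 2.34 CPM in siControl and 1.44 to 2.49 CPM with siEglN2, so its level in siControl was already near that reached with shKDM5A-1. The effects were -4.23 ± 0.10 with KDM5A and -0.37 ± 0.19 with EglN2 (edgeR adjusted p = 0.103). KYNU, the kynureninase of tryptophan breakdown, fell from 51.6, 51.7 and 50.9 CPM to 17, 19.2 and 18.9 and 7.74, 8.01 and 7.39 CPM with the shRNAs (-2.11 ± 0.05) and had 0.06 ± 0.06 with EglN2. MMP9, a gelatinase (-2.75 and, with EglN2, 0.38), PPFIA4, a liprin (-2.58 and -0.11), the miR-210 host transcript MIR210HG (-2.43 and 0.11), and CSGALNACT1, a chondroitin synthesis enzyme (-2.20 and 0.10), were lower with KDM5A only. SAA1, an acute-phase protein, had -2.77 and 0.11, but its reads can be shared with SAA2.

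The level of a gene in the control groups went with the opposed classes and with those of a single experiment, though not in every list. CPM was scaled within each table, and with that limit all 3 shControl libraries lay above all 3 siControl libraries for 29.8% of the 14889 genes and below them for 27.4%. Among genes higher with EglN2 and lower with KDM5A these shares were 62.7% and 12.6%, and among genes lower with EglN2 and higher with KDM5A 17.6% and 51.9%. Genes shared in direction had 38% and 29.6% (higher in both) and 29.7% and 42.5% (lower in both). Genes changed with EglN2 only had 51.7% and 12.1% (higher) and 22.4% and 45.7% (lower). Those changed with KDM5A only had 17% and 45.7% (higher) and 47.5% and 17.7% (lower). The shControl libraries were the higher ones for 31 of 43 interferon-stimulated genes, 23 of 26 NF-kB genes and 12 of 19 cytokines, with median log2 ratios of 0.32, 0.72 and 1.14. The mitosis list went against the class that holds most of it, with shControl higher for 28 of 40 members. The shControl libraries were the lower ones for 37 of 39 cytosolic ribosomal proteins and for 28 of 32 cholesterol synthesis genes, a mostly shared list. The control libraries also enter the effects that define the classes, so control level and class are not independent. The part of the control levels in the calls was not tested.

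The remaining lists are given as counts, to be read beside 18.4% shared and 16.3% opposed over all genes tested in both. Most held a larger share of shared or of opposed genes than that. Of 22 NRF2 targets and ferritin genes, 8 were shared, 8 opposed, 2 changed with EglN2 only and 3 with KDM5A only, and the drug exporter ABCC3 had 0.42 and -1.57. Of 21 p53 targets, 5 were shared, 8 opposed, 2 changed with EglN2 only and 5 with KDM5A only, with the exonuclease AEN at -0.41 ± 0.04 and 1.10 ± 0.04. Of 21 heat shock factor targets, 7 were shared, 8 opposed, 0 changed with EglN2 only and 4 with KDM5A only, with 6 shared and 8 opposed for shKDM5A-1 alone and 8 and 4 for shKDM5A-2 alone, and CHORDC1, a partner of HSP90, was higher in both (1.37 ± 0.04 and 0.45 ± 0.03). Of 31 ATF4 targets, 9 were shared, 8 opposed, 3 changed with EglN2 only and 6 with KDM5A only, with medians of 0.03 and 0.16. SLC7A5, an amino acid transporter of that list, had -0.06 and 0.80.

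Of 26 epithelial-mesenchymal genes and integrins, 10 were shared, 4 opposed, 5 changed with EglN2 only and 4 with KDM5A only, with medians of -0.01 and -0.36. S100A4, a motility-related calcium-binding protein, was lower in both (-0.69 ± 0.03 and -1.13 ± 0.04), and the tight junction gene CLDN1 had 1.25 and -0.58. Of 13 EGF receptor family genes and ligands, 6 were shared, 0 opposed, 2 changed with EglN2 only and 1 with KDM5A only. EREG, the ligand epiregulin, had -1.71 with EglN2 and -0.60 and 0.02 with the shRNAs. Where both shRNAs were 1 group of 6, KDM5A calls were also lost for MPP4, TGFA, EREG, CEBPG, STC2, HMGCS1, TM7SF2, HSPB1, HSPD1, RPS2, RPS3 and RPLP0. Of 31 lysosome and autophagy genes, 6 were shared, 7 opposed, 4 changed with EglN2 only and 6 with KDM5A only, with the protease CTSD at -0.40 and -0.70.

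Of 23 sphingolipid genes, 3 were shared, 7 opposed, 2 changed with EglN2 only and 5 with KDM5A only. ORMDL3, which restrains sphingolipid synthesis and carries 3 matches in its 3′ UTR, held 32.1 to 34.5 CPM in siControl against 8.8 to 11.9 CPM with siEglN2, and 25.7 to 29 CPM in shControl against 29.5 to 34 CPM with shKDM5A, with -1.64 ± 0.07 and 0.20 ± 0.05. Among 25 H3K4 methyltransferases and demethylases, 5 were shared, 8 opposed, 2 changed with EglN2 only and 3 with KDM5A only, with KMT2B at 0.36 and 0.26 and WDR5 at -0.22 and 0.38. Among 26 genes of SIN3, HDAC, RB and other KDM5A partners, 6 were shared, 3 opposed, 4 changed with EglN2 only and 3 with KDM5A only, and HDAC1 was lower in both (-0.27 ± 0.02 and -0.30 ± 0.03). The plot of list medians gives all 29 lists side by side.

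**Figure D5:**
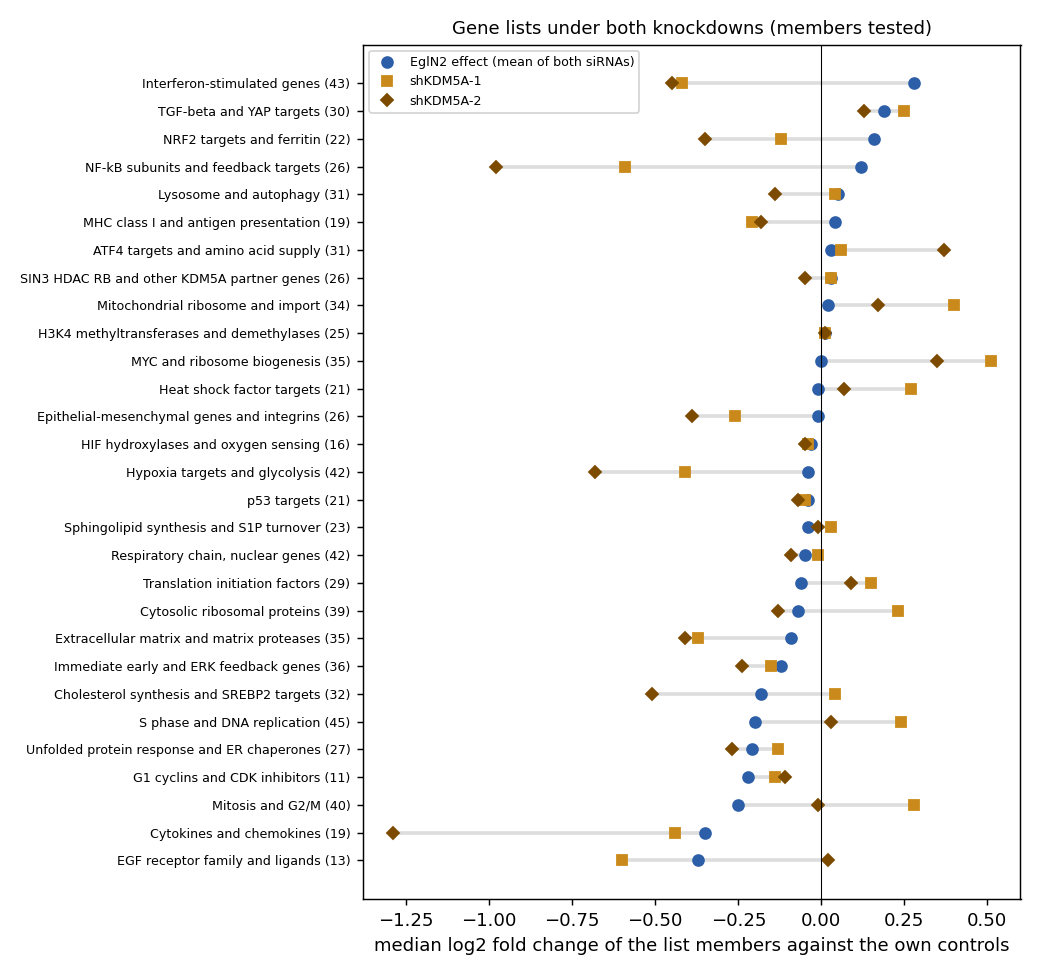
Median log2 fold change of the tested members of 29 gene lists (number in brackets) after EglN2 siRNA (circle), shKDM5A-1 (square) and shKDM5A-2 (diamond), each against its own controls. Interferon-stimulated genes lie at 0.28 with EglN2 and -0.42 and -0.45 with the shRNAs, and the mitosis list at -0.25, 0.28 and -0.01.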

How the data were processed

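RNA-seq of MDA-MB-231 was given as 1 gene table per experiment. Per the submitters' processing notes, STAR 2.4.2 and Salmon 0.1.19 were used; the builds named there are GRCh38 and hg19, and settings are not given in the sources used here. The deposited raw values were read as estimated counts (expected counts), since about 50% were not whole (50.4% and 50.0% were exactly whole in the KDM5A and EglN2 tables), and were rounded. A second set of deposited columns, normalized by the authors and read from its values as a log2 scale, was not used. Symbols turned into dates (20 and 21 rows, 0.2% and 0.194% of counts) were left out, which kept 16197 and 15830 genes, 15519 of them in both.

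Each table was fitted alone with edgeR 4.0.16 (limma 3.58.1, R 4.3.3), with TMM scaling, filterByExpr at a minimum count of 10, a robust quasi-likelihood test and Benjamini-Hochberg adjustment at 0.05. An effect is the mean of both reagents minus their control. The difference of effects came from 1 fit of all 18 libraries. CPM uses TMM library sizes, and depth was 14361214 to 19661501 counts. The steps were tested on simulated data in which both reagents of a target had the same effect. That test does not show how the classes behave where the shRNAs differ.

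Members and the 34 lists (5 of them markers; 920 symbols, 869 found, 24 under an older symbol) were chosen with earlier results of these data known. Named genes were the EGLN and KDM5 genes, the 8 with the largest smallest effect over 4 reagents in each shared or opposed direction, the 6 with the largest difference in each specific direction, and up to 4 members per list; some genes that met this rule are not reported here. Alternatives were DESeq2 1.42.0, other scaling, filters and thresholds, each reagent alone, pooled reagents, a replicate block and leaving out each library. Same-numbered libraries of different groups had residual correlations of -0.0746 to 0.0501 over 18 pairs, so the numbers were not taken as pairs. Coordinates and 3′ UTRs come from GENCODE 29 on GRCh38, matched by symbol; the tables hold none.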

Additional observations from a re-analysis of the deposited data

Results flagged for a closer look

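Of the 164 named genes, 4 had shRNAs called in opposite directions against the same shControl libraries, with a called difference between the shRNAs by edgeR. C9orf41, named for its EglN2 effect, had 0.43 with shKDM5A-1 and -0.29 with shKDM5A-2, a difference of -0.72 ± 0.06 (edgeR adjusted p = 1.71e-11). KCTD9 had 0.11 and -0.15, a difference of -0.26 ± 0.04 (edgeR adjusted p = 1.24e-06). ARNT2, a bHLH-PAS transcription factor, had -0.46 and 0.42, a difference of 0.88 ± 0.06 (edgeR adjusted p = 6.76e-14). All 3 genes were counted as changed with EglN2 only, and their missing KDM5A call rests on a mean of opposite effects. RPS3, a ribosomal protein with pseudogene copies, had 0.32 and -0.12, a difference of -0.44 ± 0.03 (edgeR adjusted p = 2.46e-08). Both shRNAs lowered KDM5A itself, by -1.57 and -1.42, and what sets the shRNAs apart was not tested.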

How the results depend on the processing

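The counts rested most on effect size and on how the shRNAs were joined. With a 1.5-fold minimum, 983 genes were called with EglN2, 1686 with KDM5A, 2310 in the difference, 143 as shared, 84 as opposed, 461 as EglN2 only, 871 as KDM5A only and 2243 between the shRNAs. Where each reagent had to be called, 4983 were called with KDM5A, 1362 shared, 1126 opposed and 2534 EglN2 only. With both reagents as 1 group of 6 the KDM5A call numbered 4664, shared 1475, opposed 1249 and KDM5A only 1471. DESeq2 gave 2142 shared and 1837 opposed genes.

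Leaving out 1 library gave 2497 to 2743 shared and 2199 to 2440 opposed genes, with the lowest opposed count without siControl replicate 1. Genes called between the siRNAs numbered 0 without a filter, 3 at an average log2 CPM of at least 1, 0 at adjusted p under 0.01, and 0 to 7 with 1 library left out. The across-gene r was 0.0598 with DESeq2, 0.0463 without a filter, 0.0789 at a log2 CPM of at least 1, 0.0484 and 0.0443 with shKDM5A-1 or shKDM5A-2 alone, and 0.0338 to 0.0662 with 1 library left out. With the replicate block, 7429 genes were called with EglN2, 8861 with KDM5A, 2692 as shared, 2396 as opposed and 2 between the siRNAs.

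A value counted as reversed when its sign changed and it was called before or after. The use of 1 shRNA alone, chosen after seeing the data, reversed 21 values of named genes, and no other alternative reversed one. Over all alternatives, 119 values lost their call, 77 gained one and 12228 counted as unchanged. Unchanged values kept direction and call, or changed sign with no call before or after. With shKDM5A-1 alone the KDM5A effect was 0.1062 for KCTD9 and -0.0717 for CEBPG. The difference of effects was then 0.4135 for KRTAP2-3, 0.07476 for ANKRD1, 0.1617 for PDE1C, -0.3098 for FOS, -0.1413 for PTGES, -0.3394 for P4HA2, -0.122 for RRM2, -0.08595 for PDIA3, 0.1938 for TGFA and -0.07986 for DEGS1. With shKDM5A-2 alone the KDM5A effect was -0.2925 for C9orf41, 0.4186 for ARNT2, 0.01961 for EREG and -0.1158 for RPS3, and the difference -0.01109 for ISM1, 0.069 for KLF2, -0.1016 for TAGLN, -0.07347 for THBS1 and -0.3248 for CEBPG. Some reversed values were not called with the single shRNA. These were the KDM5A effects on CEBPG and EREG and the differences for ANKRD1, DEGS1, ISM1, KLF2, TAGLN and THBS1. The cause was not tested for any reversed value. Counting error is small at these depths, but genes under a few CPM, such as CXCL10, CST7 and LEFTY1, rest on few reads.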
